A study of Arabidopsis with 27 samples.

Results

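The chloroplast genome of Arabidopsis thaliana was followed through 133 rows of a gene expression table, every row whose identifier starts with ATCG, out of 32824 rows in all. The other rows belong to the mitochondrial genome (152 rows) and to the nuclear genome (32539 rows). Of the 133 chloroplast rows, 48 were above 0 in all 27 libraries, 38 were above 0 in some of them and 47 were listed at 0 in all of them.

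RNA-seq was made from systemic rosette leaves, leaves of a plant that did not themselves receive the treatment, of plants of 4 weeks. A local leaf received eATP, L-Glu or mock buffer, and the systemic leaf was frozen 30 min later. The 9 groups were the double mutant glr3.3glr3.6, the double mutant p2k1p2k2 and wild-type Col-0, each with eATP, with L-Glu and with mock, and each group held 3 libraries, each a pool of 8 plants. L-Glu was given at 100 mM. The labels call the other treatment eATP, extracellular ATP, and give its compound as βγmeATP, an ATP analogue, at 300 µM. The names of the mutants refer to glutamate receptor-like channels (GLR3.3 and GLR3.6) and to ATP receptor kinases (P2K1 and P2K2), and the labels name no alleles. The comparisons ask whether signals sent by a local leaf reach the chloroplast transcripts of a distant leaf within 30 min, and whether that depends on these receptors.

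Chloroplasts keep a small circular genome that encodes subunits of the photosystems, of the cytochrome b6f complex, of the ATP synthase and of the NDH complex, the large subunit of Rubisco, and part of the organelle's own transcription and translation machinery, including its ribosomal and transfer RNAs. It is transcribed by a bacterial-type polymerase, whose core is encoded in the chloroplast while its sigma factors and associated proteins are encoded in the nucleus, and by a phage-type polymerase encoded in the nucleus. Chloroplast transcripts are cut, edited and stabilised by nuclear-encoded RNA-binding proteins, and a poly(A) tail, which marks nuclear messengers for translation, marks chloroplast RNA for decay. The genome also carries a large inverted repeat, so that genes inside it exist as a pair of near-identical copies. The deposited table gives identifiers without gene names, and 0 of the 133 identifiers could be matched to the reference annotation used here, so the rows are called by identifier and no function is given to any of them.

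Leaf markers were high in the libraries, and the mutant labels did not show as loss of transcript. LHCB1.3, a light-harvesting protein of photosystem II, averaged 21490.9 FPKM over the 27 libraries and RBCS1A, a nuclear-encoded small subunit of Rubisco, averaged 9177 FPKM. Of 4 root genes, EXPA7 and PHT1.1 were listed at 0 in every library, COBL9 reached at most 0.0615 FPKM, and SHR was above 0 in every library, between 1.22 and 2.70 FPKM. The senescence gene SAG12 was listed at 0 in every library. GLR3.6 averaged 95.9 ± 22.1 FPKM in the libraries labelled glr3.3glr3.6, against 1.06 ± 0.217 FPKM in Col-0 (SD, n = 9 each), and GLR3.3 averaged 7.0 ± 0.689 against 3.91 ± 0.533 FPKM. P2K2 averaged 16.9 ± 8.76 FPKM in the libraries labelled p2k1p2k2, against 0.551 ± 0.201 FPKM in Col-0, and P2K1 averaged 6.40 ± 2.57 against 1.60 ± 0.364 FPKM. Each of the 4 genes was thus more abundant where the label names its mutation, and a mutant's name below means the libraries labelled so.

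Chloroplast rows held a small share of the table. FPKM, fragments per unit of gene length and of mapped fragments, are scaled by gene length, so levels can be compared between genes per length. Gene lengths and fragment counts were not used here for the chloroplast rows, so a high FPKM need not mean many fragments. The summed FPKM of the 133 rows ran between 992 (Col-0 L-Glu replicate 2) and 3459 (p2k1p2k2 L-Glu replicate 2), with a median of 1691, which was between 0.130% and 0.453% of the summed FPKM of a library. A library had 64 to 74 of the 133 rows above 0. Over all rows of the table, 57.4% of nuclear rows and 24.3% of mitochondrial rows were above 0 in all libraries, beside 36.1% of the chloroplast rows. A mean of at least 1 FPKM, the minimum for testing, was reached by 58 chloroplast rows (43.6%), and the median of their means was 3.6 FPKM, against 10.8 FPKM for the nuclear rows that passed.

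The 48 rows above 0 in all libraries spanned more than 3 orders of magnitude in mean level. The 4 highest were ATCG01210 and ATCG00920 at 327 FPKM each and ATCG00950 and ATCG01180 at 169 FPKM each. They were followed by ATCG00470 (16.5 FPKM), ATCG00020 (16 FPKM), ATCG00480 (15.9 FPKM) and ATCG00490 (11.6 FPKM). A further 27 rows had means of 1 to 10 FPKM: ATCG00790, ATCG00780, ATCG00330, ATCG00280, ATCG00830, ATCG01310, ATCG00810, ATCG00530, ATCG00730, ATCG00680, ATCG00130, ATCG00120, ATCG00800, ATCG00720, ATCG00770, ATCG01240, ATCG00190, ATCG00900, ATCG00270, ATCG00340, ATCG00540, ATCG00740, ATCG00670, ATCG00430, ATCG00150, ATCG00420 and ATCG00350, in falling order. The last 13 lay under 1 FPKM: ATCG00180, ATCG01050, ATCG00520, ATCG00040, ATCG01100, ATCG00170, ATCG00890, ATCG01250, ATCG01130, ATCG01010, ATCG01000, ATCG00860 and ATCG01280. The 47 rows listed at 0 in every library were ATCG00010, ATCG00030, ATCG00050, ATCG00060, ATCG00065, ATCG00100, ATCG00110, ATCG00200, ATCG00210, ATCG00220, ATCG00230, ATCG00240, ATCG00250, ATCG00260, ATCG00290, ATCG00310, ATCG00370, ATCG00390, ATCG00400, ATCG00410, ATCG00450, ATCG00460, ATCG00510, ATCG00560, ATCG00570, ATCG00590, ATCG00600, ATCG00610, ATCG00620, ATCG00690, ATCG00700, ATCG00760, ATCG00850, ATCG00880, ATCG00910, ATCG00930, ATCG00940, ATCG00980, ATCG00990, ATCG01030, ATCG01140, ATCG01150, ATCG01190, ATCG01200, ATCG01220, ATCG01260 and ATCG01290. The highest chloroplast row stood at rank 282 of the 32824 rows by mean level. Around the minimum for testing, ATCG00350 (1.05 FPKM) was just inside and ATCG00180 (0.991 FPKM) just outside.

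**Figure D1:**
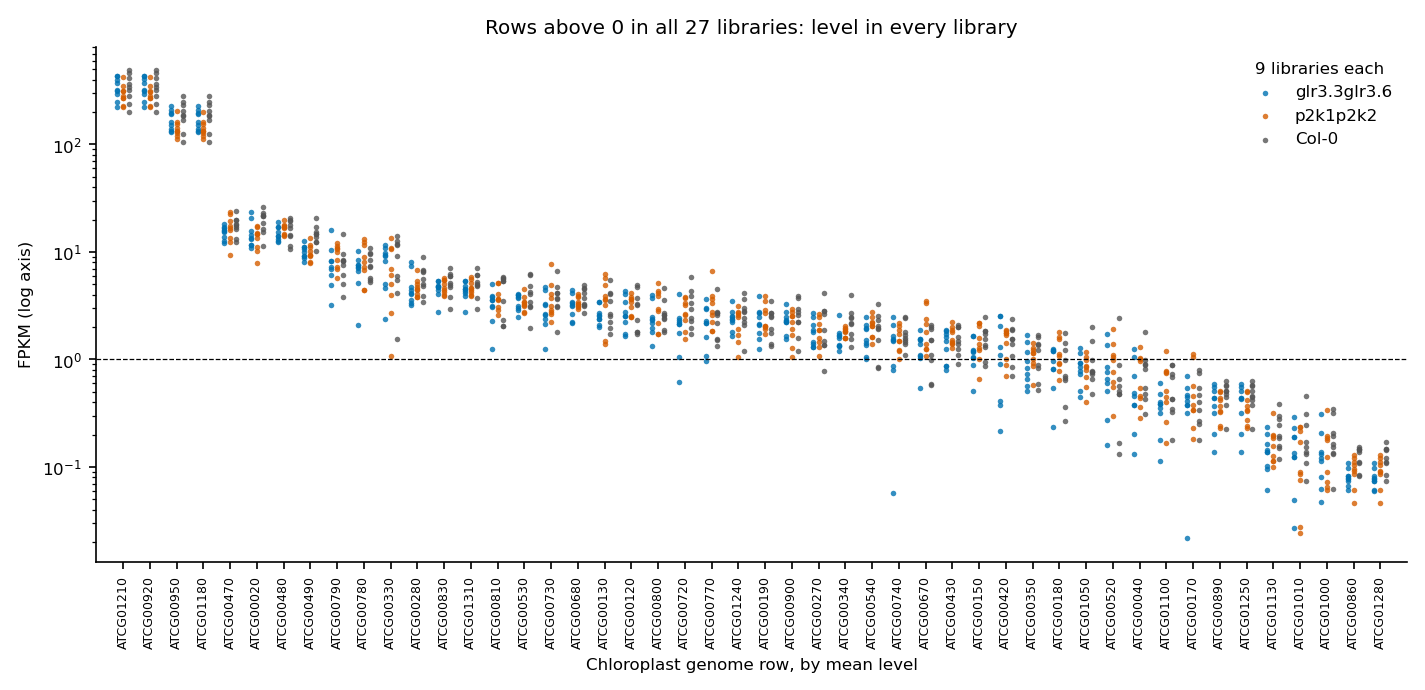
FPKM (log axis) of each of the 48 chloroplast genome rows above 0 in all 27 libraries, 1 point per library, 9 libraries per genotype, ordered by mean level; the dashed line is 1 FPKM, the minimum mean for testing. A group of 4 rows near 169 and 327 FPKM stands above the rest, which begin at 16.5 FPKM, and the genotypes overlap in each of the 48 rows.

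Many of the strongest rows came in pairs. In 10 pairs of rows the zeros fell in the same libraries and, in at least 80% of the libraries above 0, the values lay within a relative tolerance of 0.25 of each other. ATCG01210 and ATCG00920 differed by at most 0.00 on the log2 scale in any library, and ATCG00950 and ATCG01180 by at most 0.01. In 3 pairs, ATCG00870 with ATCG01270, ATCG00960 with ATCG01170 and ATCG00970 with ATCG01160, the values were equal in all 27 libraries. Rows of a pair can share reads, so the level of either copy is uncertain and a pair is not a pair of independent results. With each pair counted once, the 133 rows come to 123, the 48 rows to 42 and the 58 tested rows to 51.

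The 4 highest rows above 0 in all libraries are 2 such pairs and moved together. ATCG00920 ran between 199 FPKM in Col-0 L-Glu replicate 3 and 489 FPKM in Col-0 mock replicate 1, with a median of 317 FPKM. Its partner in level, ATCG00950, ran between 106 and 283 FPKM with its lowest and highest value in the same 2 libraries. After the group means were removed, their correlation over the 27 libraries was 0.95 (Pearson's r, a description of libraries that share depth and scaling). These 4 rows held 86.5% of the summed FPKM of the 48 rows.

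The 38 rows above 0 in some libraries only held 34.6% of the summed chloroplast FPKM, and several of them switched between 0 and a high value. ATCG00320 was listed at 1908 FPKM in p2k1p2k2 L-Glu replicate 2 and at 0 in the other 26 libraries. ATCG00090 was listed at 644 FPKM in Col-0 eATP replicate 3, at 672 FPKM in Col-0 L-Glu replicate 3, at 1033 FPKM in Col-0 mock replicate 2 and at 0 in the other 24. The library totals followed these values: without the 38 rows, the sum of the remaining 48 ran between 755 and 1716 FPKM, while the sum of the 38 ran between 44.6 and 2506 FPKM. How many fragments the values of ATCG00320 and ATCG00090 rest on is unknown, and the totals share that limit.

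Other rows of this kind showed the same gap between 0 and their lowest value. ATCG00960 and ATCG01170 were above 0 in 8 libraries, where they lay between 102 and 291 FPKM. ATCG00970 and ATCG01160 were above 0 in 7 libraries, between 44.9 and 152 FPKM. ATCG00080 was above 0 in 4 libraries, between 96.5 and 326 FPKM, and ATCG00550 in 1, at 82.9 FPKM. Between these highs and the listed zeros there was no intermediate value.

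The row with the highest mean among those listed at 0 in any library was ATCG00630. It was above 0 in 25 libraries, between 53.2 and 480 FPKM (479.7 in glr3.3glr3.6 L-Glu replicate 1), and was listed at 0 in p2k1p2k2 L-Glu replicate 1 and Col-0 L-Glu replicate 2. ATCG01020 was above 0 in 18 libraries, between 17.4 and 164 FPKM. ATCG00070 was above 0 in 11 libraries (10.2 to 45.1 FPKM), ATCG00640 in 12 (6.31 to 31.9 FPKM) and ATCG00710 in 5 (4.04 to 12.7 FPKM). ATCG00140 was above 0 in 26 libraries (1.92 to 34.7 FPKM) and ATCG00580 in 23 (1.65 to 22.5 FPKM). The other 8 tested rows with a listed 0, ATCG01230, ATCG00650, ATCG01300, ATCG00750, ATCG00905, ATCG00840, ATCG00820 and ATCG01070, passed the minimum with means between 1.07 and 2.15 FPKM. The remaining 15 of the 38 rows had means under 1 FPKM: ATCG01060, ATCG00440, ATCG00380, ATCG01090, ATCG00660, ATCG01080, ATCG00300, ATCG00160, ATCG00870, ATCG01270, ATCG00360, ATCG00500, ATCG01040, ATCG01120 and ATCG01110. Of the rows with a median of at least 10 FPKM, 2 of 10 chloroplast rows (20%) were at 0 in some library, against 4 of 8498 nuclear rows (0.0471%).

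**Figure D2:**
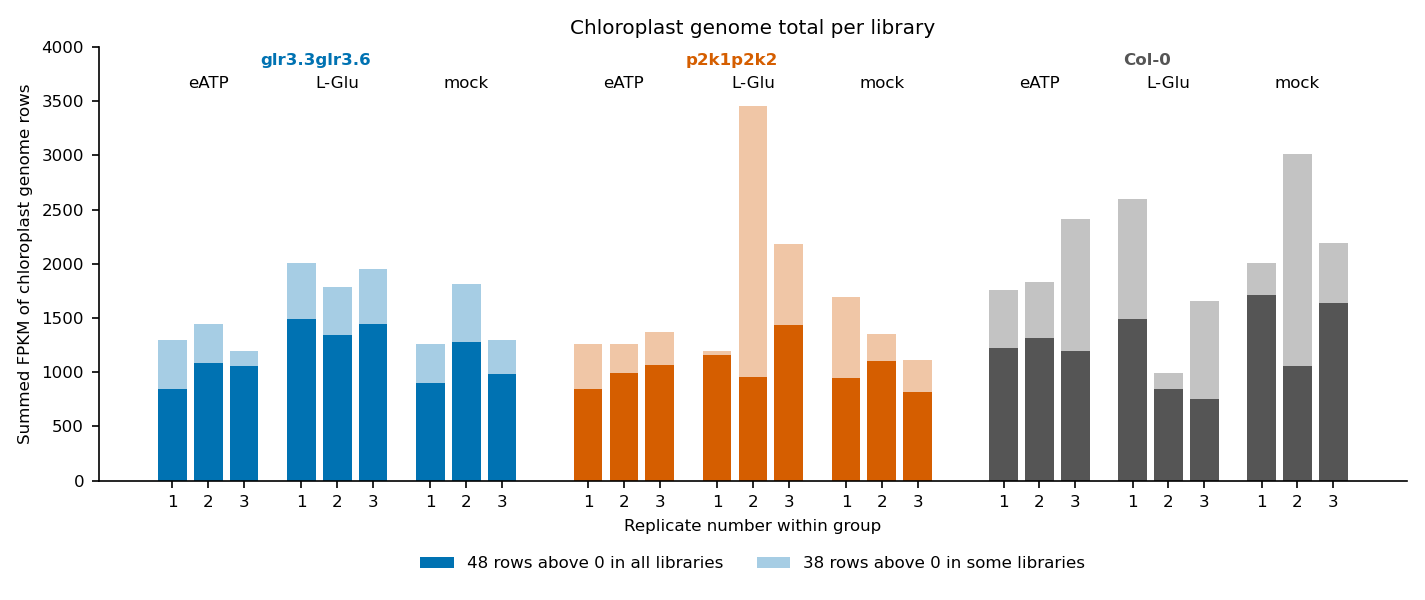
Summed FPKM of the chloroplast genome rows in each library, in 9 groups of 3 libraries, split into the 48 rows above 0 in all libraries (dark) and the 38 above 0 in some (pale). The pale part runs between 44.6 and 2506 FPKM and the dark part between 755 and 1716 FPKM.

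Among rows above 0 in all libraries, the spread between pools of one group differed widely by row. The median SD of log2(FPKM + 1) within groups was 0.32 over the 35 tested rows of this kind, and their highest value was a median of 3.32 times their lowest. ATCG00330 varied most, with an SD of 0.88. It had 10.9, 9.15 and 2.38 FPKM in glr3.3glr3.6 eATP, 6.98, 2.73 and 13.4 FPKM in p2k1p2k2 eATP, and 6.03, 4.14 and 11.8 FPKM in Col-0 eATP, so that these groups overlapped. The next were ATCG00780 (SD 0.51), ATCG00130 (0.45), ATCG00790 (0.45) and ATCG00730 (0.44). The smallest SDs belonged to the low rows ATCG00860 (0.035), ATCG01280 (0.037) and ATCG01130 (0.090), where the added 1 FPKM flattens the log scale.

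A few libraries held the extremes of many rows at once. Col-0 mock replicate 3 was among the 5 highest libraries for 25 of the 35 rows and Col-0 L-Glu replicate 1 for 23. Col-0 L-Glu replicate 2 was among the 5 lowest for 23 of the 35 rows, and glr3.3glr3.6 eATP replicate 1 for 18. Col-0 thus held both the highest and the lowest libraries, and its L-Glu group was split between them.

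No chloroplast row passed the test with eATP. Of the 58 rows tested, 0 passed in glr3.3glr3.6, in p2k1p2k2 or in Col-0 against the mock of the same genotype (limma, Benjamini-Hochberg adjusted p under 0.05 over 16577 genes), and 0% of all genes passed in each of these comparisons. At an unadjusted p under 0.05 there were 0 rows in glr3.3glr3.6, 0 in p2k1p2k2 and 1 in Col-0, against 3.38%, 1.79% and 2.64% of all genes. In bulk leaf RNA, fewer cells of a type and less RNA per cell cannot be told apart.

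The median difference of the 35 tested rows above 0 in all libraries, eATP minus mock on the log2(FPKM + 1) scale, was -0.08 in glr3.3glr3.6, -0.03 in p2k1p2k2 and -0.09 in Col-0. Of these rows, 29 were lower with eATP in glr3.3glr3.6, 20 in p2k1p2k2 and 24 in Col-0. The median over all genes was 0.01, 0.04 and -0.03 in the same order. Leaving out 1 library moved it to -0.18 in glr3.3glr3.6 (without mock replicate 3), to between -0.09 (without mock replicate 3) and -0.00 (without eATP replicate 3) in p2k1p2k2, and to between -0.27 (without mock replicate 2) and 0.02 (without mock replicate 3) in Col-0. In Col-0 the medians by replicate number were -0.01, 0.21 and -0.44. The row with the smallest p in Col-0 was ATCG00670, with a mean of 1.80 ± 0.257 FPKM with eATP and 0.899 ± 0.548 FPKM with mock (SD, n = 3 each, adjusted p = 1 by limma). Over the 3 genotypes, 0 of 58 rows passed for eATP against mock by limma (0% of all genes), and 0 reached an unadjusted p under 0.05 (1.59% of all genes). The median difference of the 35 rows was -0.09, with 29 rows lower. It was -0.15 without Col-0 mock replicate 2 and -0.06 without glr3.3glr3.6 eATP replicate 1 or Col-0 mock replicate 3.

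No row passed the test with L-Glu either, while the chloroplast rows leaned in opposite directions in glr3.3glr3.6 and in Col-0. The median difference of the 35 rows, L-Glu minus mock, was 0.26 in glr3.3glr3.6 with 27 rows higher, -0.06 in p2k1p2k2 with 13 higher, and -0.27 in Col-0 with 3 higher. The median was 0.14 in glr3.3glr3.6 without its mock replicate 3, and in p2k1p2k2 it ran between -0.16 without L-Glu replicate 3 and -0.03 without L-Glu replicate 1. The median over all 16577 genes was 0.00 in glr3.3glr3.6, 0.01 in p2k1p2k2 and 0.03 in Col-0. By limma, 0 of 58 rows passed in each genotype, where 0% of all genes passed. At an unadjusted p under 0.05 there were 5 rows in glr3.3glr3.6, 2 in p2k1p2k2 and 5 in Col-0, against 1.98%, 1.72% and 0.881% of all genes.

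In glr3.3glr3.6 the shift with L-Glu was shared by many rows. The L-Glu and mock libraries did not overlap in 17 of the 58 rows, against 5.53% of all genes. That count takes either direction and both rows of a pair. The medians by replicate number were 0.09, 0.11 and 0.32. ATCG00920 had 432, 402 and 433 FPKM with L-Glu, against 248, 374 and 293 FPKM with mock. All 3 L-Glu pools were above all 3 mock pools. ATCG00120 averaged 3.95 ± 0.451 FPKM with L-Glu and 2.05 ± 0.624 FPKM with mock (SD, n = 3 each), a log2 difference of 0.72 (SE 0.27, adjusted p = 1 by limma). ATCG01230 was listed at 0 in the 3 L-Glu pools and at 3.57, 2.28 and 6.92 FPKM in the 3 mock pools.

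In Col-0 the shift with L-Glu differed between pools. The medians by replicate number were 0.15, -0.24 and -0.62, and the median was -0.51 without Col-0 L-Glu replicate 1 and -0.16 without Col-0 L-Glu replicate 2. ATCG00950 had 231, 125 and 106 FPKM with L-Glu, against 283, 171 and 248 FPKM with mock. The L-Glu values ran from below all the mock values to between them, and the log2 difference was -0.65 (SE 0.23, adjusted p = 1 by limma). ATCG00750 went the other way, with 3.59, 1.42 and 3.50 FPKM with L-Glu, against 0.289, 0.313 and 1.5 FPKM with mock (adjusted p = 1 by limma).

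In p2k1p2k2 the smallest p belonged to ATCG00320, whose value with L-Glu rests on the 1 pool given above. ATCG00150 followed, with 1.05 ± 0.338 FPKM with L-Glu and 1.89 ± 0.425 FPKM with mock (SD, n = 3 each, adjusted p = 1 by limma). Over the 3 genotypes, 0 of 58 rows passed for L-Glu against mock by limma (0% of all genes), 0 reached an unadjusted p under 0.05 (1.06% of all genes), and the median difference was -0.03, or -0.08 without Col-0 L-Glu replicate 1 and 0.02 without Col-0 L-Glu replicate 2.

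**Figure D3:**
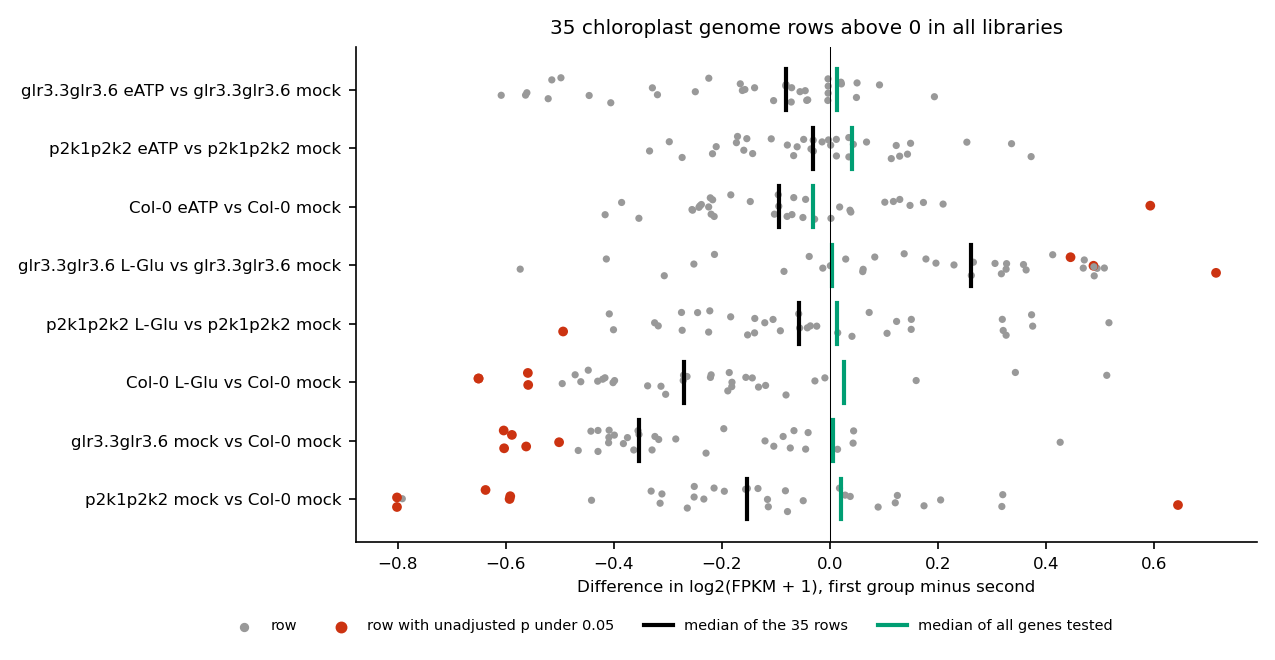
Difference in log2(FPKM + 1), first group minus second, of the 35 tested rows above 0 in all 27 libraries in 8 comparisons; red points have an unadjusted p under 0.05, and none passed after adjustment. The medians of the rows (black) lie between -0.35 and 0.26, while those of all genes (green) stay near 0.

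The difference between genotypes in the response to L-Glu was tested directly. The response of glr3.3glr3.6 exceeded that of Col-0 by a median of 0.51 on the log2 scale over the 35 rows, with 30 rows higher, and that of p2k1p2k2 exceeded it by a median of 0.15, with 27 higher. Without 1 library the p2k1p2k2 value ran between 0.04 (without Col-0 L-Glu replicate 2) and 0.37 (without Col-0 L-Glu replicate 1). By limma, 0 of 58 rows passed in either comparison, where 0% of all genes passed. At an unadjusted p under 0.05 there were 12 rows for glr3.3glr3.6, all higher, and 6 for p2k1p2k2, against 1.34% of all genes (0.573% higher) and 1.06%. Both comparisons use the same Col-0 libraries, and the counts take both rows of a pair. The spread behind these p-values includes shifts between replicate numbers. In deviations from group means, same-numbered libraries of different groups had a median r of 0.35 over all genes and -0.04 over the chloroplast rows. The shares of rows and of all genes are thus not on an equal footing. How far this sets them apart was not tested. For eATP, 0 of 58 rows passed by limma (0% of all genes) and 0 reached an unadjusted p under 0.05 in either mutant, against 1.77% of all genes at that p for glr3.3glr3.6 and 2.88% for p2k1p2k2.

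ATCG01180 and its pair ATCG00950 had the smallest p for the response of glr3.3glr3.6 to L-Glu. ATCG00950 had 226, 191 and 210.3 FPKM with L-Glu and 132, 195 and 132 FPKM with mock in glr3.3glr3.6, 161, 134 and 203 FPKM with L-Glu and 128, 157 and 112 FPKM with mock in p2k1p2k2, and in Col-0 the values given above. The 2 L-Glu responses of opposite sign differed by 1.12 (SE 0.33, unadjusted p = 0.00241, adjusted p = 1 by limma). Within replicate numbers 1, 2 and 3 the response was 0.77, -0.03 and 0.67 in glr3.3glr3.6 and -0.29, -0.44 and -1.21 in Col-0.

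Nuclear ribosomal RNA levels stand beside these differences, and 0% of all genes passed for L-Glu in any genotype. AT2G01010, a nuclear row that the reference annotation lists as ribosomal RNA, averaged 850 ± 52.4 FPKM (849.7) with L-Glu and 685 ± 96.4 FPKM with mock in glr3.3glr3.6, 839 ± 179 FPKM with L-Glu and 758 ± 27.0 FPKM with mock in p2k1p2k2, and 653 ± 131 FPKM with L-Glu and 795 ± 135 FPKM with mock in Col-0 (SD, n = 3 each). Of the tested rows outside the chloroplast genome, it was the most like the mean of the 35 chloroplast rows over the 27 libraries (Pearson's r = 0.62, with shared library scaling). AT3G41768 (r = 0.60), another ribosomal RNA row, and AT5G03880 (r = 0.59), a nuclear protein-coding gene, followed. AT2G01010 and AT3G41768 rose and fell together, with their lowest and highest values in the same libraries, so they are not separate likenesses. AT2G01020, a ribosomal RNA row with a mean of 629 FPKM, was not among the most alike. With L-Glu and with mock it averaged 670 ± 168 and 499 ± 201 FPKM in glr3.3glr3.6. The same means were 580 ± 45.3 and 536 ± 159 FPKM in p2k1p2k2, and 594 ± 148 and 730 ± 86.2 FPKM in Col-0 (SD, n = 3 each). The last nuclear ribosomal RNA row, AT3G41979, averaged 0.000691 FPKM, under the minimum for testing. The chloroplast rows themselves correlated with their mean at a median r of 0.57, between -0.14 and 0.82. Whether the ribosomal RNA level has a part in the chloroplast values was not tested.

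Between mock-treated plants, chloroplast rows leaned lower in both mutants than in Col-0, and no row passed the test. The median difference of the 35 rows was -0.35 for glr3.3glr3.6 against Col-0, with 31 rows lower, and -0.15 for p2k1p2k2 against Col-0, with 24 lower, while the median of all genes was 0.01 and 0.02. By limma, 0 of 58 rows passed in either comparison, against 0.0483% and 0.0362% of all genes. At an unadjusted p under 0.05 there were 5 rows for glr3.3glr3.6 and 9 for p2k1p2k2, against 2.16% and 2.18% of all genes. The groups did not overlap in 10 and in 6 of the 58 rows, in either direction and with both rows of a pair counted, against 5.16% and 5.53% of all genes.

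These mock differences were not the same in every pool. By replicate number, the median was -0.19, -0.00 and -0.65 for glr3.3glr3.6 and -0.15, 0.20 and -0.45 for p2k1p2k2, both against the same 3 Col-0 mock libraries. Without Col-0 mock replicate 3 the medians were -0.20 for glr3.3glr3.6 and -0.05 for p2k1p2k2, and without p2k1p2k2 mock replicate 3 the second was -0.07. For ATCG00950, p2k1p2k2 mock averaged 132 ± 22.7 FPKM, against 234 ± 57.7 FPKM in Col-0 mock (SD, n = 3 each), a log2 difference of -0.80 (SE 0.23, adjusted p = 1 by limma), with no overlap between the groups.

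ATCG00490 came nearest to a call between genotypes. With eATP it had 9.12, 9.25 and 8.09 FPKM in glr3.3glr3.6, 9.46, 7.97 and 11 FPKM in p2k1p2k2 and 14.7, 12.3 and 13.8 FPKM in Col-0. With L-Glu it had 11.2, 10.7 and 12.6 FPKM in glr3.3glr3.6, 9.21, 10.2 and 13.4 FPKM in p2k1p2k2 and 15.2, 10.3 and 16.9 FPKM in Col-0. With mock it had 10.1, 11.2 and 8.86 FPKM in glr3.3glr3.6, 8.13, 9.36 and 11.7 FPKM in p2k1p2k2 and 14.6, 12.4 and 20.7 FPKM in Col-0. Every mutant pool was below every Col-0 pool with eATP and with mock, and with L-Glu the groups overlapped because of Col-0 replicate 2.

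Over the 3 treatments, ATCG00490 averaged 10.1 ± 1.41 FPKM in glr3.3glr3.6 and 10.1 ± 1.76 FPKM in p2k1p2k2, against 14.5 ± 2.99 FPKM in Col-0 (SD, n = 9 each). The log2 difference was -0.47 for glr3.3glr3.6 (SE 0.11, adjusted p = 0.0993 by limma) and -0.48 for p2k1p2k2 (SE 0.11, adjusted p = 0.0684 by limma). Within replicate numbers 1, 2 and 3 it was -0.51, -0.16 and -0.75 for glr3.3glr3.6 and -0.67, -0.32 and -0.46 for p2k1p2k2. Both comparisons share the 9 Col-0 libraries.

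**Figure D4:**
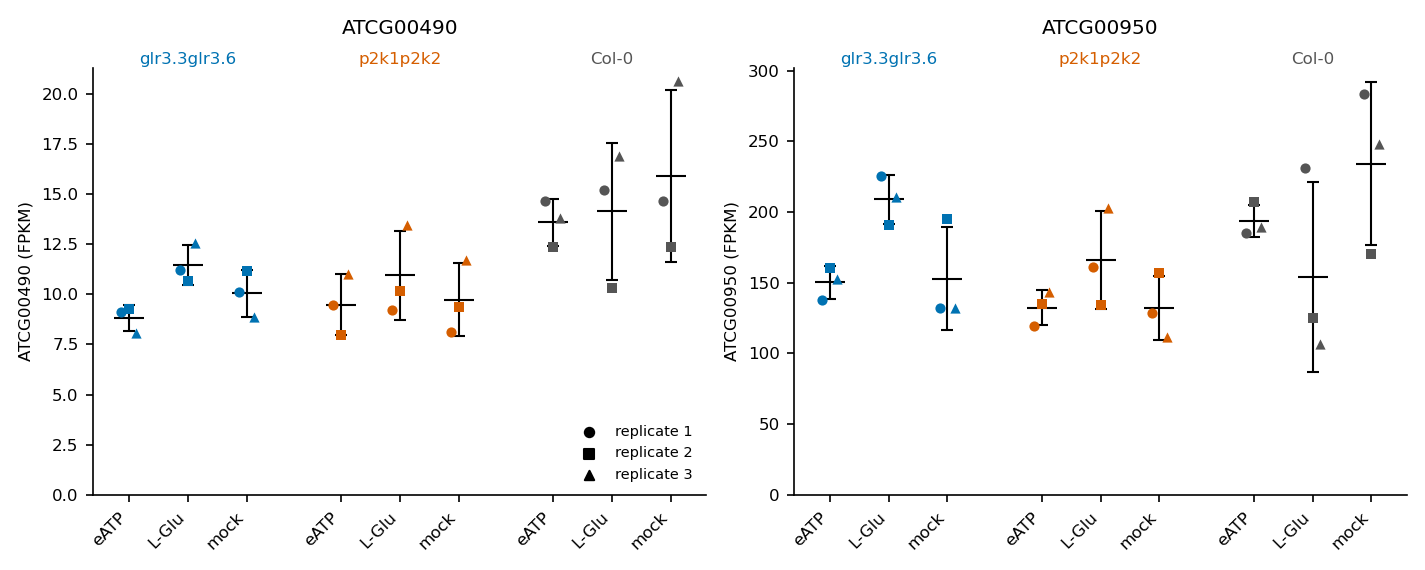
FPKM of ATCG00490 and of ATCG00950 in each of the 9 groups, 1 point per library with the marker giving the replicate number, and the mean ± SD of 3 libraries in black. ATCG00490 averages 10.1 FPKM in each mutant, against 14.5 FPKM in Col-0, and ATCG00950 is spread over 106 to 283 FPKM within Col-0 alone.

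Averaged over the treatments, 0 of 58 rows passed between either mutant and Col-0, where 0.151% of all genes passed for glr3.3glr3.6 and 0.109% for p2k1p2k2 (limma). At an unadjusted p under 0.05 there were 7 rows in each, against 7.09% and 13.2% of all genes. The median difference of the 35 rows was -0.15 for glr3.3glr3.6, with 34 rows lower, and -0.08 for p2k1p2k2, with 24 lower. Without Col-0 L-Glu replicate 1 these medians were -0.08 for glr3.3glr3.6 and -0.01 for p2k1p2k2. By replicate number these medians were -0.32, -0.01 and -0.12 for glr3.3glr3.6 and -0.32, 0.15 and -0.07 for p2k1p2k2.

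For p2k1p2k2 against Col-0, libraries with the same replicate number deviated together over all genes (lowest r 0.22). Over the chloroplast rows, same-numbered libraries of different groups had a median r of -0.04. With that number as a block, 3 of 58 rows passed, no larger a share than the 6.62% of all genes that passed. The 3 were ATCG00490 (adjusted p = 0.0044 by limma), ATCG00020 (adjusted p = 0.0138) and ATCG00820 (adjusted p = 0.0423), all lower in p2k1p2k2. ATCG00020 averaged 13.5 ± 3.15 FPKM in p2k1p2k2, against 19.6 ± 4.55 FPKM in Col-0 (SD, n = 9 each). ATCG00820 was above 0 in 2 of 9 p2k1p2k2 libraries, at 2.62 and 1.24 FPKM, against 8 of 9 Col-0 libraries, at 1.11 to 4.93 FPKM. It was above 0 in 6 of 9 glr3.3glr3.6 libraries. Its mean of 1.07 FPKM passed the minimum through Col-0, where it is high, so its call lends no support to a difference.

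The 2 rows with the smallest p for glr3.3glr3.6 over the treatments were ATCG00490 and ATCG00340, which averaged 1.62 ± 0.421 FPKM in glr3.3glr3.6, against 2.29 ± 0.795 FPKM in Col-0 (SD, n = 9 each, adjusted p = 0.566 by limma). ATCG01020 was above 0 in 3 of 9 glr3.3glr3.6 libraries, at 29.8, 24.7 and 81.9 FPKM, against 7 of 9 Col-0 libraries, at 29.1 to 164 FPKM, and in 8 of 9 p2k1p2k2 libraries. Its adjusted p was 0.604 by limma.

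Replicate number, which each group shares and whose meaning the labels do not give, gave more calls over the table than any treatment or genotype. Between number 1 and numbers 2 and 3, 8819 of the 16577 genes passed (53.2%), and between number 2 and number 3, 4370 passed (26.4%). Of the 58 chloroplast rows, 7 passed in each comparison by limma. The rows' standard errors were also larger, at a median of 0.14 on the log2 scale in the first comparison, against 0.07 for all genes.

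In number 1, 5 rows were higher and 2 were lower than in numbers 2 and 3, where 18.5% of all genes were called higher and 34.7% lower. ATCG00480 rose to 17.7 ± 2.53 FPKM in number 1, against 15.0 ± 2.37 FPKM (SD, n = 9 and 18), a log2 difference of 0.23 (adjusted p = 0.0103 by limma). ATCG01310, which pairs with ATCG00830, rose to 5.36 ± 0.862 FPKM, against 4.43 ± 0.866 FPKM (adjusted p = 0.0258). ATCG00790 fell to 6.34 ± 1.82 FPKM, against 9.41 ± 3.00 FPKM, a log2 difference of -0.49 (adjusted p = 0.0048). ATCG01070, above 0 in 19 libraries, was also called lower in number 1, with a log2 difference of -0.53 (adjusted p = 0.032), but passed the minimum only through number 3, with a mean of 1.96 FPKM there, against 0.537 in number 1 and 0.709 in number 2, so its call lends no support. The 7 calls came to 3 without Col-0 L-Glu replicate 1 and to 4 without glr3.3glr3.6 L-Glu replicate 1.

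In number 2, all 7 rows that passed, ATCG01070 again among them, were lower than in number 3, where 13.6% of all genes were called lower. As ATCG01070 passed the minimum only through number 3, its call lends no support here either. ATCG00720 fell to 2.08 ± 0.822 FPKM in number 2, against 3.59 ± 1.16 FPKM in number 3 (SD, n = 9 each), a log2 difference of -0.59 (SE 0.13, adjusted p = 0.00208 by limma). ATCG00020 fell to 12.6 ± 3.91 FPKM in number 2, against 17.6 ± 4.61 FPKM in number 3 (log2 difference -0.46, SE 0.11, adjusted p = 0.00512). For both rows the ranges of the numbers overlapped.

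Nuclear genes that serve chloroplast transcription were also followed. Of 13 genes for proteins associated with the bacterial-type polymerase, 11 fell and 0 rose in number 1 against numbers 2 and 3, with a median log2 difference of -0.39, where 34.7% of all genes were called lower and 18.5% higher. MURE (AT1G63680) fell to 9.15 ± 1.15 FPKM in number 1, against 13.5 ± 1.62 FPKM (SD, n = 9 and 18, adjusted p = 1.2e-06 by limma), and PTAC6 (AT1G21600) fell to 28.2 ± 3.04 FPKM, against 38.9 ± 3.22 FPKM (adjusted p = 1.76e-06). Between number 2 and number 3, 8 of the 13 rose and 0 fell, where 12.8% of all genes were called higher and 13.6% lower. Among the 8 was PTAC10 (AT3G48500), at 12.9 ± 2.76 FPKM in number 2, against 8.46 ± 1.34 FPKM in number 3 (adjusted p = 0.000391).

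Of 8 genes for sigma factors and phage-type polymerases, 1 rose and 5 fell in number 1, beside 18.5% of all genes called higher and 34.7% lower. The one that rose was SIG5 (AT5G24120), a sigma factor known for its response to light and stress, at 9.08 ± 1.11 FPKM in number 1, against 5.57 ± 0.99 FPKM in numbers 2 and 3 (log2 difference 0.62, adjusted p = 1.05e-06 by limma). RPOTp (AT2G24120), the phage-type polymerase of plastids, fell to 5.25 ± 0.989 FPKM, against 6.85 ± 1.40 FPKM (adjusted p = 0.0026). Between number 2 and number 3, 2 of the 8 rose and 1 fell, beside 12.8% and 13.6% of all genes.

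Of 17 tested genes for chloroplast RNA processing and stability, 1 rose and 9 fell in number 1, again beside 18.5% of all genes higher and 34.7% lower. CP29A (AT3G53460), a chloroplast RNA-binding protein, fell to 286 ± 36.1 FPKM, against 495 ± 49.9 FPKM (log2 difference -0.79, adjusted p = 4.25e-09 by limma). HCF173 (AT1G16720), needed for translation of a photosystem II core protein, rose to 97.6 ± 6.93 FPKM, against 86.3 ± 7.88 FPKM (adjusted p = 0.00557). Of 9 nuclear genes for subunits that join chloroplast-encoded ones, 8 fell and 0 rose against the same shares, among them RBCS3B (AT5G38410), at 4809 ± 334 FPKM in number 1, against 5898 ± 728 FPKM (adjusted p = 1.01e-05). Between number 2 and number 3, 5 rose and 1 fell of the 17, and 4 rose and 0 fell of the 9, beside 12.8% of all genes higher and 13.6% lower. In the treatment and mutant comparisons, 0 genes of these 4 lists passed by limma, and at most 2 genes of a list reached an unadjusted p under 0.05.

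**Figure D5:**
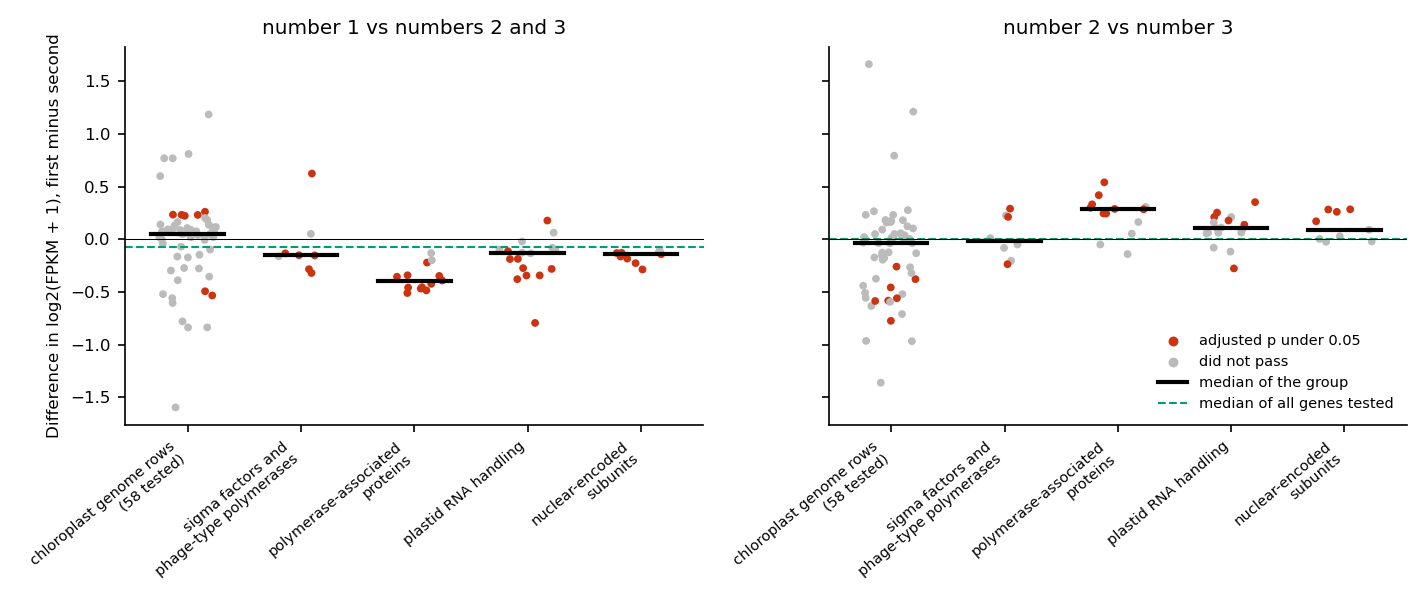
Difference in log2(FPKM + 1) between replicate numbers, for the 58 tested chloroplast rows and for 4 lists of nuclear genes. The lists hold genes for chloroplast gene expression or for subunits that join chloroplast-encoded ones. Red points passed at an adjusted p under 0.05, black bars are medians and the dashed line is the median of all genes. In number 1 the polymerase-associated genes lie at a median of -0.39 and the chloroplast rows at 0.05.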

How the data were processed

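Per the submitters' processing notes, the tools included HISAT2 2.2.1, Cufflinks and Cuffdiff 2.2.1, SAMtools 1.19, Trim Galore 0.6.7 and FastQC 0.11.9, and the build was TAIR10. The authors deposited 1 table of FPKM per gene and library. Counts were not used here and absolute depth is unknown. Steps between low nuclear values gave relative depths of 0.885 to 1.43. With these depths, 77.7% of the low nuclear values were whole multiples within a tolerance of 0.05, where values spread evenly give 10%. The depths were taken from those same values, so that share is no test of them. Among chloroplast rows listed at 0 in some libraries, 25.2% of the values were whole multiples. These rows took no part in the depths and had no ceiling on their level, so the shares cannot be compared. A listed 0 can be a failed estimate.

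From the table, the 16577 genes whose mean reached 1 FPKM were fitted as log2(FPKM + 1) with limma 3.58.1 (R 4.3.3) over all 27 libraries, 1 mean per group, with a trended prior, two-sided tests and Benjamini-Hochberg adjustment over all genes of a comparison. The 18 comparisons were 6 of treatment with mock, 2 of mutant with Col-0 mocks, 4 of responses, 4 averages and 2 of replicate numbers, the last with group as a term. The fit was run on simulated data with independent noise for each gene and without the measured shifts between replicate numbers. That run therefore cannot say how the fit behaves under such shifts. Fold values understate low rows. A p-value sets a difference against the spread between pools of 8 plants. Except in the comparisons of replicate numbers and the fits with a block, that spread includes the shifts between numbers. Same-numbered libraries correlated less over the chloroplast rows than over all genes. Shares of the rows and of all genes at an unadjusted p are thus not on an equal footing.

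The members and gene lists were chosen with earlier results of these data known. Named rows are the 10 highest by mean, the called rows (at most 2 in each direction) or the 2 with the smallest p in each comparison, the most and least variable rows, and the tested rows with a listed 0. Functional classes could not be assigned, since identifiers were not paired with names; nuclear names follow the reference annotation TAIR10.1 and its synonyms where given. Of the RNA handling list, 17 of 18 genes were in the table; the other was not analysed here. No sequence is shown because the reference used here holds none.

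Replicate numbers were taken as pairing libraries where every same-numbered pair of the compared groups correlated above 0.1 in its deviations from group means over all genes. That held for L-Glu against mock in each genotype, for eATP against mock in p2k1p2k2, for p2k1p2k2 against Col-0 and for L-Glu over genotypes. Same-numbered libraries of different groups had a median r of 0.35 over all genes and of -0.04 over the chloroplast rows. Alternatives were another pseudocount, filters, scalings, library weights, replicate blocks, a fit restricted to the compared libraries, and refits without each library.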

Additional observations from a re-analysis of the deposited data

How the results depend on the processing

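The count of chloroplast rows called stayed at 0 in the 6 comparisons of a treatment with mock, the 2 of mutant with Col-0 mocks, the 4 of responses and the 2 averages over genotypes, under each of the alternatives run and each library left out. With the replicate number as a block across all libraries, 1 row passed for glr3.3glr3.6 over the treatments (ATCG00490, adjusted p = 0.008 by limma), against 2.3% of all genes. There the lowest r of a same-numbered pair was 0.058, under the 0.1 set here for taking numbers as pairing libraries. Without the block, 0.151% of all genes passed. For p2k1p2k2 over the treatments, 3 rows passed, against 6.62% of all genes, and the block changed no other call. Median-of-ratios scaling gave 1 row for p2k1p2k2 over the treatments. A minimum mean of 5 FPKM, which leaves 25 of the rows, gave 3 rows for number 1 and 3 for number 2 against number 3. Leaving out each library in turn gave 3 to 8 rows for number 1, 5 to 8 for number 2 against number 3, and 0 to 1 for glr3.3glr3.6 (1 without Col-0 L-Glu replicate 2) and for p2k1p2k2 (1 without Col-0 eATP replicate 1 or 2, Col-0 L-Glu replicate 2 or Col-0 mock replicate 2) over the treatments. For ATCG00490, the adjusted p ran from 0.00800 to 0.236 in glr3.3glr3.6 and from 0.0044 to 0.165 in p2k1p2k2 over 37 alternatives, always with a lower level. The cause of these moves was not tested. A block inside each genotype was not run between genotypes, where it rests on 1 number only. Of 38 results for named rows under 1385 settings, 1364 kept their side of the threshold without reversing, 12 lost and 9 gained the call, and 0 reversed. Many settings left out a library outside the comparison, which cannot change a difference, and most of the results had no call to lose. ATCG00320 in p2k1p2k2 with L-Glu fell to a difference of 0 and still counts as kept. These counts are therefore no measure of how firm the results are.

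Some medians near 0 changed sign: in refits without a library, L-Glu against mock over genotypes did in 4 and number 2 against number 3 in 5; number 1 did without Col-0 L-Glu replicate 1 (-0.03); and with a minimum mean of 5 FPKM p2k1p2k2 stood at 0.04 with eATP and 0.13 with L-Glu. Precision is limited by 3 pools a group and, for rows listed at 0, by values that jump between 0 and their lowest level.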

Other observations

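The chloroplast rows did not move as one block within groups. Over 31 tested rows above 0 in all libraries, with each pair of copies counted once, the 465 correlations of deviations from group means over the 27 libraries had a median Pearson's r of 0.22, and 77.0% were above 0. They are descriptions of libraries that share depth and scaling. ATCG00120 and ATCG00270 had an r of 0.84, ATCG00350 and ATCG00920 of 0.78, and ATCG00740 and ATCG00780 of 0.73. ATCG00790 and ATCG00830 stood at the other end, with an r of -0.48, and ATCG00020 had an r of -0.46 with ATCG00790 and of -0.45 with ATCG00740. Only group means were removed, so these deviations still hold the shifts between replicate numbers. In number 1, ATCG00790 was lower while ATCG00830 and ATCG00020 were higher, which is part of these correlations and not a separate observation.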
